A study of Arabidopsis thaliana with 18 samples.

Results

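The UGT genes of Arabidopsis thaliana encode UDP-dependent glycosyltransferases, and their transcripts were followed in roots of 6 genotypes that differ in NRT1.1. Members were all genes whose symbol in the platform annotation begins with UGT and a number, each taken by its brightest probe set that lists 1 gene. The rule found 47 genes with 1 probe set each, of 13350 genes named by such probe sets, and all 47 matched a locus in RefSeq. Values were measured on 18 Affymetrix arrays, with 3 arrays a genotype. The lines were chl1-5 (known as a deletion of NRT1.1), chl1-9 (known as a point mutant), chl1-12 (an allele whose lesion is not described in the labels), and T101A and T101D. T101 is a threonine of NRT1.1 that can carry a phosphate: T101A stands for the form that cannot carry it, and T101D for the form that imitates it. The background and promoter of the T101 lines are not given in the labels. The wild type was col, the Columbia accession. All plants, col included, grew in vitro for 8 days on 10 mM NH4NO3, and no other treatment is given. NRT1.1 carries nitrate into root cells and also senses it. No probe set was named for this gene in the annotation used, so its own transcript was not analysed here and the genotypes were not checked by it.

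UGT enzymes move a sugar, usually glucose from UDP-glucose, onto a small acceptor molecule. The acceptors include lignin precursors, flavonols, hormones, defence compounds and foreign chemicals, and the sugar often makes the acceptor inactive or ready for storage in the vacuole. Beta-glucosidases of the BGLU family can take the sugar off again. Many UGT genes lie side by side in the genome as tandem copies: here 24 of the 47 had another member as their next gene, in 14 adjacent pairs. Sequences of the genes and proteins were not used here.

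Intensities are on a linear scale that is common to all arrays, and the level of one probe set is not set against that of another. The 18 arrays had medians of 184 to 197, with 194 to 197 in col and 184 to 192 in the lines, so every col median was above those of the lines. The 5' to 3' ratio of the GAPDH control, a check of RNA quality, was 0.740 to 0.797 in col. It was higher on all arrays of chl1-5 (0.806 to 0.923) and T101A (0.845 to 0.944). In chl1-9 (0.729 to 0.828), chl1-12 (0.788 to 0.981) and T101D (0.797 to 0.942) it overlapped col. The part of these array differences in the results was not tested. Across probe sets, arrays of the same genotype correlated at 0.978 to 0.989. Of the 47 members, 34 stayed above an intensity of 16 on every array and 9 averaged under 16. Values that low were taken as background here, although no background level was measured. UGT73C1, UGT76E1 and UGT78D3 were under 16 on all 18 arrays. Differences are given on the scale of log2(value + 16), and folds are taken from these differences. This scale understates changes of dim genes, so a fold can be smaller than the ratio of the printed intensities. A gene was called at a limma adjusted p under 0.05 over all 22746 probe sets tested. The 5 comparisons against col share the same 3 col arrays and are not independent of each other. A p-value sets a difference against the spread between arrays of a genotype, estimated over all 6 genotypes together. The labels do not say that arrays of 1 genotype came from separate cultures, so this spread can be technical. Root hair markers, measured for 6 of 9 listed genes, summed to an intensity of 6256 to 9779 on the chl1 arrays, 7746 to 9770.3 on the T101 arrays, and 4828 to 5999.6 on the col arrays. Green shoot markers, measured for 4 of 9, summed to 1447 to 2449 on the chl1 arrays, 1352 to 1806 in T101A and 801 to 1176 in T101D, against 1941 to 2947 in col. Both T101 forms thus lay below every col array for this sum. Taken singly, all 4 markers lay below col on all arrays in T101D, while in T101A the marker RCA overlapped col. No marker of either list was at 0. The part of these markers in the results below was not tested, and in whole roots fewer cells of a type and less RNA per cell cannot be told apart.

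Against col, 5 of the 47 members were called in at least 1 line, or 10.6%, against 5.13% of all probe sets. In chl1-9, 3 members rose and 1 fell, where 1.75% of all probe sets were called higher and 1.64% lower, 3.39% in all. In T101A 2 rose and 2 fell (background 1.52% higher, 0.712% lower, 2.23% in all). In chl1-12 1 rose and 2 fell (background 0.941%, 0.558% and 1.5%). In chl1-5 2 rose and 0 fell (background 1.35%, 0.822% and 2.18%). With quantile normalization, 2 rose and 2 fell in chl1-12, 5 rose and 1 fell in chl1-9, and 3 rose and 0 fell in chl1-5. Calls over all 22746 probe sets were then 339, 781 and 489 in these lines. Arrays centred on their medians gave the same member counts, beside 382, 839 and 538 calls over all probe sets. No member passed in T101D by limma (background 0.255%), where 13 had an unadjusted p under 0.05 (background 10.6% at that p). At an unadjusted p under 0.05 the other lines had 8 members in chl1-5, 15 in chl1-9, 11 in chl1-12 and 12 in T101A, against 13.5%, 15.5%, 11.1% and 16% of all probe sets. The 13 calls belonged to 5 genes: UGT72E1, UGT72B3, UGT84A1, UGT76E2 and UGT78D1. The same 5 were called by limma's moderated F test over all 6 genotypes (background 2.63%). The 42 other members were not called against col in any line.

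**Figure D1:**
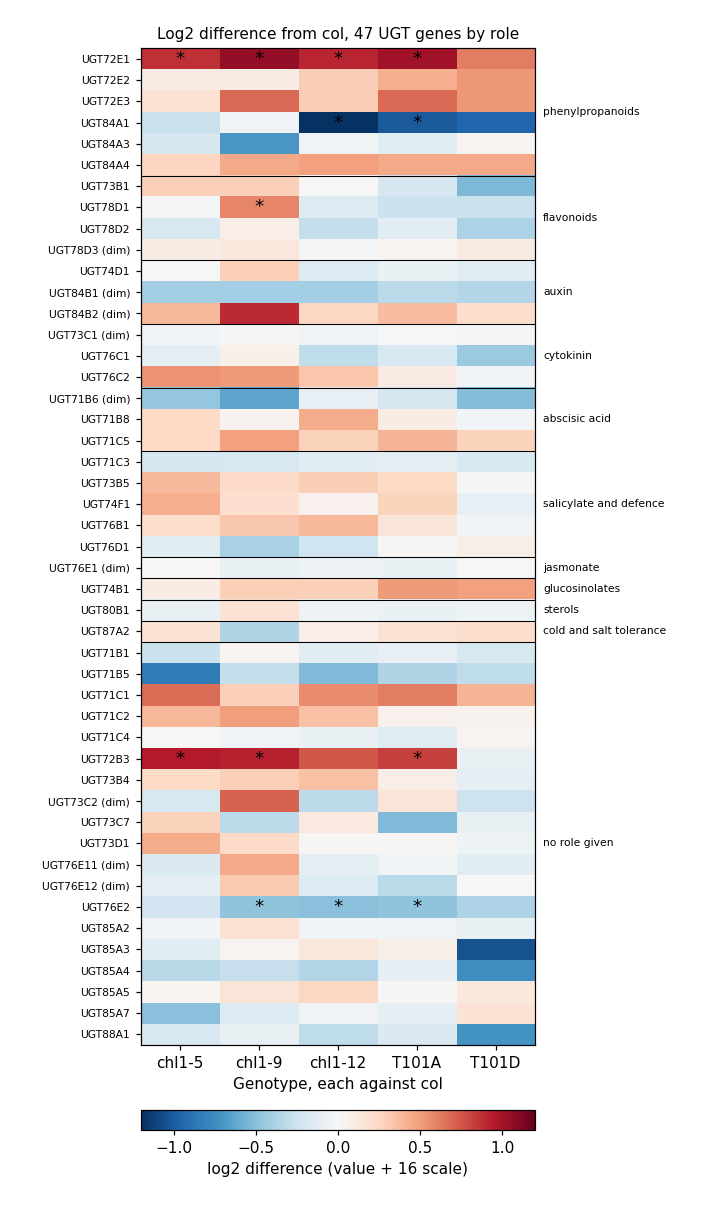
Log2 difference of each of the 47 UGT genes (rows, grouped by the role of the enzyme) from col in 5 lines (columns), on the log2(value + 16) scale. Stars mark limma adjusted p under 0.05 and "dim" marks genes averaging under an intensity of 16. The 13 stars fall on 5 rows, and the T101D column has none.

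The phenylpropanoid group holds UGT72E1, UGT72E2 and UGT72E3, which glucosylate monolignols and related aldehydes, the building blocks of lignin, and UGT84A1, UGT84A3 and UGT84A4, which make glucose esters of hydroxycinnamic acids. UGT72E1 (AT3G50740) was the member called in most lines. Its intensity was 1909, 1402 and 1369 in chl1-5, 1986.5, 1879 and 1425 in chl1-9, 1895, 1458 and 1430.35 in chl1-12, 1802, 1553 and 1732 in T101A, 1489, 1114 and 1271 in T101D, and 883, 787 and 829 in col. All 15 arrays of the 5 lines were above the highest col array. UGT72E1 rose 2.08-fold in chl1-9, 2.01-fold in T101A, 1.88-fold in chl1-12 and 1.84-fold in chl1-5, with limma adjusted p between 0.00175 and 0.00969. Its difference from col in T101D was 0.61 (log2, 95% confidence interval 0.27 to 0.96), with a limma adjusted p of 0.147. The difference of T101A from T101D was 0.40, with a limma adjusted p of 0.695, so these forms were not told apart for this gene. The calls in chl1-9 and T101A held in all 15 alternatives, and that in chl1-12 was lost without chl1-12 replicate 1 (adjusted p = 0.0509). In a limma fit of only the 6 arrays compared, the calls in chl1-12 (adjusted p = 0.0624) and chl1-5 (0.0811) were lost.

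Its relatives UGT72E2 and UGT72E3 were not called in any line. UGT72E2 (AT5G66690) had 3916, 2893 and 2655 in chl1-5, 3837, 2904 and 2716 in chl1-9, 4391, 3224 and 3269.8 in chl1-12, 4287, 3777 and 3837 in T101A, 4803, 3822 and 3990.15 in T101D, and 3576, 3055 and 2269 in col. Both T101 forms lay above col on all arrays, at 0.44 and 0.52 on the log2 scale, with limma adjusted p of 0.276 and 0.338. Arrays of the chl1 lines overlapped those of col for this gene. UGT72E3 (AT5G26310) overlapped col in every line, and its highest difference was 0.68, in T101A and in chl1-9.

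UGT84A1 (AT4G15480) was low in chl1-12 and in both T101 forms. Intensities were 262, 343 and 275 in chl1-5, 321, 414 and 302 in chl1-9, 85.5, 193 and 184 in chl1-12, 191, 189.8 and 129 in T101A, 190.3, 182 and 153 in T101D, and 305, 343 and 419.5 in col. The 9 arrays of chl1-12, T101A and T101D all lay below every array of chl1-5, chl1-9 and col. UGT84A1 fell by 1.19 ± 0.24 (log2, SE) in chl1-12 and by 1.01 ± 0.24 in T101A, with limma adjusted p of 0.0209 and 0.0419. In T101D its difference was -0.95 with a limma adjusted p of 0.130. In chl1-9 and chl1-5 it was -0.04 and -0.26, with adjusted p of 0.966 and 0.706. Tests between lines did not pass: the difference of chl1-9 from chl1-12 was 1.15 with a limma adjusted p of 0.0908, and that of chl1-12 from chl1-5 was -0.92 with an adjusted p of 0.966. The chl1-12 call was lost without chl1-12 replicate 1, where the difference was -0.85 (adjusted p = 0.0565), and without col replicate 2 or 3. The T101A call was lost without col replicate 2 or 3 or any 1 of the T101A arrays, with adjusted p between 0.0603 and 0.16, and also with log2(value + 1). Both calls were also lost in the fit of the 6 arrays compared.

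The UGT84A genes beside UGT84A1 in the genome were not called. UGT84A3 (AT4G15490) overlapped col in every line. Its intensity was 55.2, 67.2 and 44.1 in chl1-12, against 78.0, 63.0 and 36.0 in col. UGT84A4 (AT4G15500) had 892, 669 and 701 in chl1-12 and 776, 673 and 745 in T101A, against 621, 531 and 446 in col. Its arrays lay above col in these lines, as they did in chl1-9 and T101D, at 0.46 to 0.49 on the log2 scale. None of these differences passed, with limma adjusted p between 0.129 and 0.276.

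**Figure D2:**
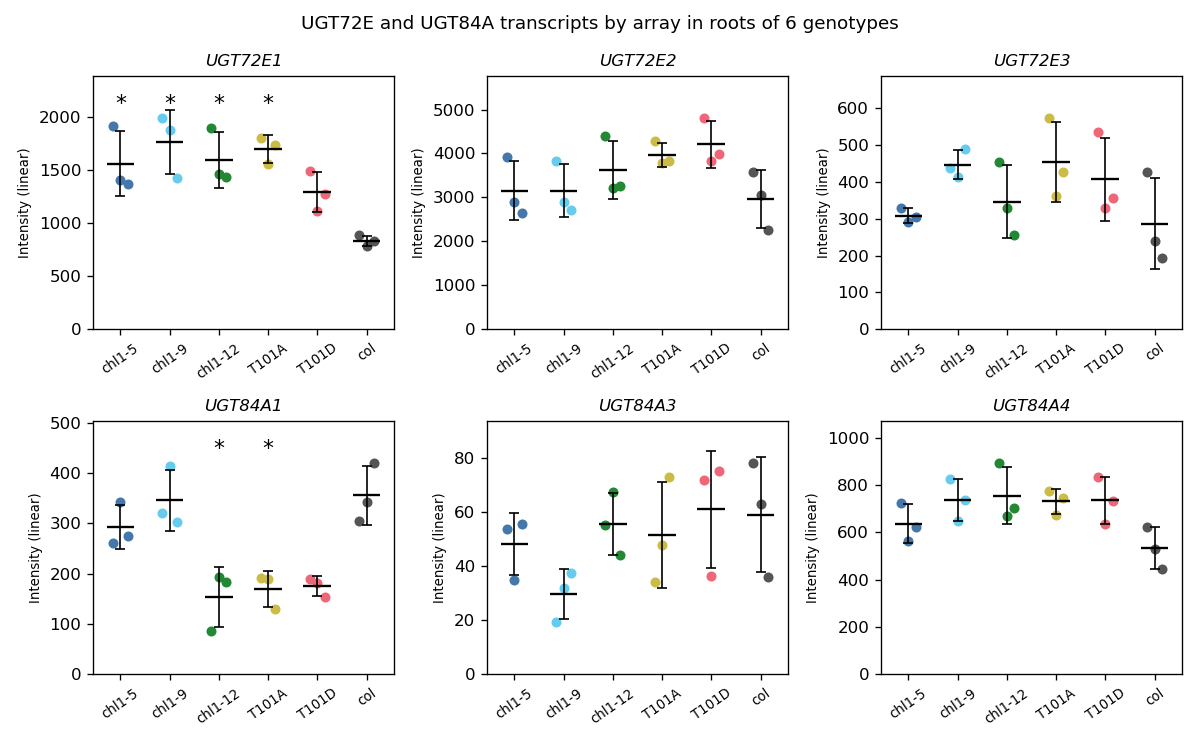
Intensity of the 6 measured phenylpropanoid UGT genes on each array (points), with mean and SD (bars, n = 3), for 5 lines and col. Stars mark limma adjusted p under 0.05 against col. UGT72E1 was above col on all 15 line arrays, while UGT84A1 was low in chl1-12, T101A and T101D.

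Of 30 listed genes of phenylpropanoid and flavonoid synthesis, 4 were measured here (CCR2, DFR, HCT and AT3G13610). None was called in any line by limma, and 0 had an unadjusted p under 0.05. Among 20 measured BGLU genes, 1 fell in chl1-9, 1 in chl1-12 and 1 in T101A, and 0 were called in chl1-5 or T101D by limma, where 1.64%, 0.558% and 0.712% of all probe sets were called lower in chl1-9, chl1-12 and T101A. At an unadjusted p under 0.05 the BGLU genes numbered 2 of 20 for chl1-5, 3 for chl1-9, 3 for chl1-12, 6 for T101A and 1 for T101D, against 13.5%, 15.5%, 11.1%, 16% and 10.6% of all probe sets. The gene that fell in chl1-9 was BGLU45 (AT1G61810), which encodes a glucosidase of monolignol glucosides, the products of the UGT72E enzymes. BGLU45 had 92.9, 98.8 and 69.4 in chl1-9, against 182, 197 and 208 in col. It fell by 1.05 ± 0.14 (log2, SE; limma adjusted p = 0.000766), and the call held in all 15 alternatives. BGLU45 was also lower in chl1-9 than in chl1-5, by a log2 difference of -0.77 (limma adjusted p = 0.041), and T101D was higher than chl1-9 by 0.83 (adjusted p = 0.00736). The difference of chl1-9 from chl1-12, -0.64, and that of T101A from chl1-9, 0.59, did not pass, with limma adjusted p of 0.114 and 0.0834. Its differences from col in the other lines lay between -0.46 and -0.22 and did not pass. The neighbour BGLU46 (AT1G61820), which acts on the same kind of substrate, fell by 0.50 in chl1-12 and by 0.48 in T101A on the log2 scale. These limma adjusted p were 0.0488 and 0.0466, and the calls were lost in 10 and 8 of 15 alternatives.

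UGT72B3 (AT1G01420), a relative of the UGT72E genes, was high in the chl1 lines and T101A but not in T101D. It had 167, 149.5 and 153 in chl1-5, 212, 125 and 133 in chl1-9, 149, 149 and 107 in chl1-12, 138, 139.8 and 147 in T101A, 78.3, 54.1 and 72.1 in T101D, and 92.1, 59.8 and 70.2 in col. All 12 arrays of the first 4 lines lay above all 6 arrays of T101D and col. UGT72B3 rose 1.94-fold in chl1-5, 1.89-fold in chl1-9 and 1.77-fold in T101A, with limma adjusted p of 0.0129, 0.0109 and 0.0299. In chl1-12 its difference was 0.75 (log2, 95% confidence interval 0.36 to 1.14), with a limma adjusted p of 0.0607. In T101D it was -0.09, with an interval of -0.48 to 0.30.

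Tested directly, UGT72B3 was lower in T101D than in chl1-5 by a log2 difference of -1.05 ± 0.18 (SE; limma adjusted p = 0.0235) and than in chl1-9 by -1.01 (adjusted p = 0.00992). The difference of T101A from T101D was 0.92, with a limma adjusted p of 0.132, and that of T101D from chl1-12 was -0.84, with an adjusted p of 0.102. Of the calls against col, that in chl1-5 was lost without chl1-5 replicate 1 or 3 or col replicate 2 (adjusted p 0.0511 to 0.0726), that in chl1-9 without col replicate 2 (0.0601), and that in T101A without col replicate 2 or 3 or any 1 of the T101A arrays (0.0659 to 0.124). Each of these calls was also lost in the fit of the 6 arrays compared. The direct difference of T101D from chl1-5 was lost without any 1 of the 6 arrays compared (0.0518 to 0.107), and that from chl1-9 without T101D replicate 2 (0.0574).

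UGT76E2 (AT5G59590) was lower in all lines than in col, and passed in 3. Intensities were 111, 91.5 and 103 in chl1-5, 92.5, 75.6 and 81.9 in chl1-9, 92.7, 74.7 and 79.3 in chl1-12, 76.9, 90.3 and 82.7 in T101A, 85.0, 96.8 and 91.4 in T101D, and 116, 116 and 135 in col. Every array of the 5 lines lay below the lowest col array. UGT76E2 fell by 0.48 in chl1-9, by 0.50 in chl1-12 and by 0.48 in T101A on the log2 scale, each with an SE of 0.10 and with limma adjusted p between 0.0172 and 0.0241. Its differences in T101D and chl1-5 were -0.37 and -0.23, with limma adjusted p of 0.165 and 0.337. All 3 calls were lost with an intensity trend in the variance (adjusted p 0.0574 to 0.0828) and without col replicate 3 (0.0826 to 0.117). They were also lost without replicate 2 or 3 of chl1-9, without replicate 2 or 3 of chl1-12 or col replicate 2, and without replicate 1 or 3 of T101A or col replicate 2. Each was lost in the fit of the 6 arrays compared as well. The next gene, UGT76E1 (AT5G59580), which encodes a glucosyltransferase of a jasmonate derivative, stayed between 1.01 and 5.16 on all 18 arrays.

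**Figure D3:**
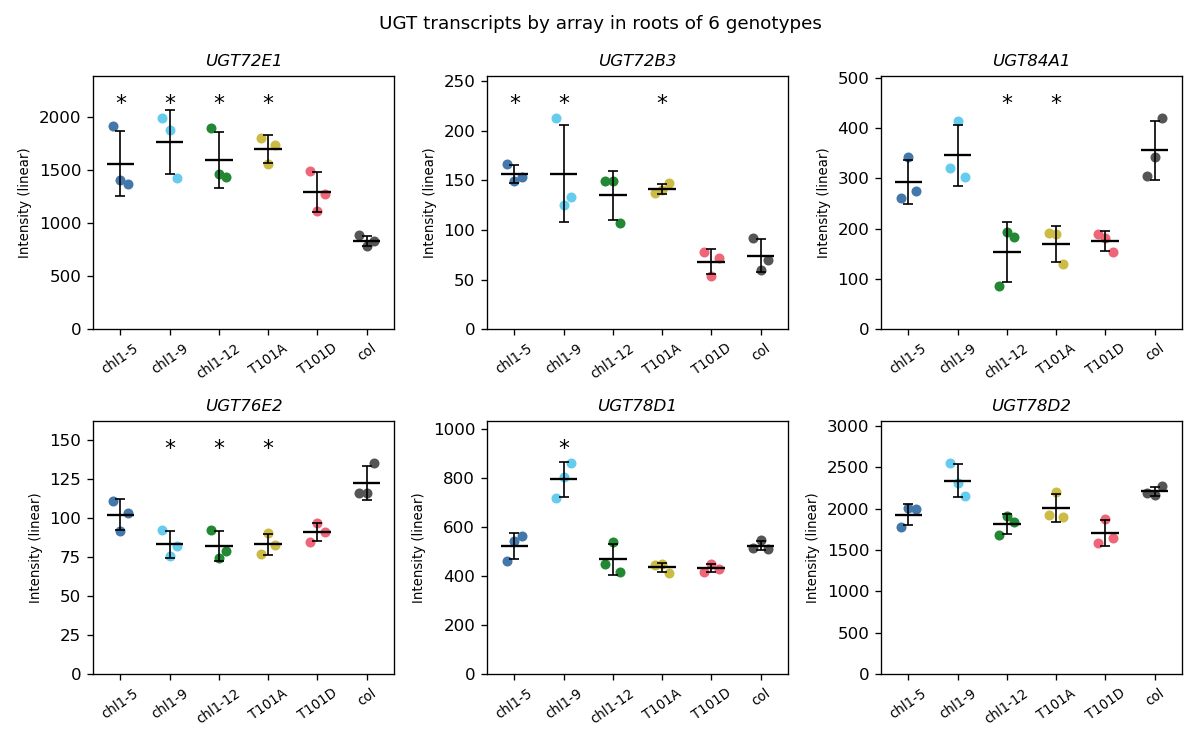
Intensity of 6 UGT genes on each array (points), with mean and SD (bars, n = 3), for 5 lines and col. Stars mark limma adjusted p under 0.05 against col. UGT72B3 in T101D (54.1 to 78.3) overlapped col (59.8 to 92.1), and UGT78D1 was high in chl1-9 (721 to 861).

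The flavonoid group has UGT78D1, a flavonol rhamnosyltransferase, UGT78D2, a flavonoid glucosyltransferase, UGT73B1 and the dim UGT78D3. UGT78D1 (AT1G30530) was high in chl1-9. It had 461, 543 and 563 in chl1-5, 721, 806 and 861 in chl1-9, 452, 539.7 and 418 in chl1-12, 447, 448 and 413 in T101A, 419, 451 and 432 in T101D, and 516, 546 and 511 in col. The 3 chl1-9 arrays were above the other 15. UGT78D1 rose by 0.58 ± 0.10 (log2, SE) against col, with a limma adjusted p of 0.00519. Each direct test against chl1-9 also passed: chl1-9 was higher than chl1-5 by 0.59 and than chl1-12 by 0.75, and T101A and T101D differed from chl1-9 by -0.84 and -0.85 on the log2 scale, with limma adjusted p between 0.00066 and 0.0282. T101A and T101D also lay below col on all arrays, as 12% and 9.63% of all probe sets did in these lines, but neither was called against col. Their differences from chl1-9 were thus larger than the 0.58 between chl1-9 and col. The call of chl1-9 against col was lost in the fit of the 6 arrays compared (adjusted p = 0.0912). The difference from chl1-5 was lost without chl1-5 replicate 1, 2 or 3 or chl1-9 replicate 2 or 3 (0.0651 to 0.137), and that from chl1-12 without chl1-12 replicate 1 (0.0509).

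UGT78D2 (AT5G17050) was not called against col. It had 2549, 2308 and 2153 in chl1-9 and 1584, 1879 and 1640.06 in T101D, against 2194, 2162 and 2267 in col. In chl1-5 it had 1777, 2010 and 1998, and in chl1-12 1676, 1914 and 1839. Both of these lines, like T101D, lay below col on all arrays, while T101A (1919, 2203 and 1896) overlapped col. T101D lay below chl1-9 on all arrays, by a log2 difference of -0.45 ± 0.10 (SE; limma adjusted p = 0.0283), a call lost without chl1-9 replicate 1 or 2 or T101D replicate 1 or 3 (0.0655 to 0.103). Against col, T101D was at -0.38 with a limma adjusted p of 0.142. UGT73B1 (AT4G34138) had a wide spread in col, at 183, 277 and 410 (409.625), which overlapped every line.

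Over the 9 pairs of lines other than T101A against T101D, 7 of 423 tests of members passed, against 0.39% of all tests in these pairs. They were 4 for UGT78D1, 2 for UGT72B3 and 1 for UGT78D2. Each involved chl1-9 or T101D, as do most of the 9 pairs. T101A against T101D gave 0 calls by limma, with 7 members at an unadjusted p under 0.05, or 14.9% of members (background 6.53% at that p, and 0.0352% called). In that comparison 7 members had T101A arrays all above those of T101D and 0 had them all below, against 6.45% and 5.1% of all probe sets.

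Members for hormones were not called in any line. Among cytokinin N-glucosyltransferases, UGT76C2 (AT5G05860) had 503, 486 and 493 in chl1-5 and 464, 509 and 483 in chl1-9, against 339, 334 and 335 in col. Both lines lay above col on all arrays, at 0.54 ± 0.13 and 0.51 ± 0.13 (log2, SE), with limma adjusted p of 0.0541 and 0.051. In chl1-12 it had 392, 423 and 466, also above col on all arrays, at 0.33 with a limma adjusted p of 0.349. In T101A and T101D the differences were 0.10 and -0.04, and the moderated F test gave an adjusted p of 0.0506. UGT76C1 (AT5G05870), its neighbour, lay between -0.45 and 0.07. The cytokinin O-glucosyltransferase gene UGT73C1 (AT2G36750) read 0.984 to 2.35 over the 18 arrays, which was taken as background. Among auxin genes, UGT74D1 lay between -0.17 and 0.29. UGT84B1 was under 16 on 17 of 18 arrays, and its 1 higher value, 19.7, was a col array, so no difference is given. UGT84B2 was under 16 on 14 of 18 arrays. It read 15.3, 14.7 and 32.0 in chl1-9, against 2.86, 2.70 and 4.22 in col, where all values were under 16 and taken as background. It was not called (limma adjusted p = 0.11). Among abscisic acid genes, UGT71C5 was at 0.49 in chl1-9 and 0.41 in T101A, with limma adjusted p of 0.0628 and 0.144. UGT71B6 and UGT71B8 were under 16 on 10 and 5 arrays.

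Of the 5 genes for salicylate and defence, none was called by limma. An unadjusted p under 0.05 was found for 1 each in chl1-5, chl1-9 and chl1-12, against 13.5%, 15.5% and 11.1% of all probe sets. UGT73B5 (AT2G15480) had 640 (640.285), 762 and 786 in chl1-5, against 502, 566 and 594 in col, at 0.39 with a limma adjusted p of 0.142. Its arrays also lay all above col in chl1-12 (656, 687 and 701) and T101A (599, 693 and 683), and overlapped col in chl1-9 and T101D. UGT76B1, which glucosylates the defence signal isoleucic acid and salicylate, ranged from 1287 to 2417 in col alone, a spread that overlapped every line. UGT74B1 (AT1G24100), an enzyme of glucosinolate synthesis, was at 0.51 in T101A and 0.49 in T101D, with limma adjusted p of 0.143 and 0.297. Its T101A arrays read 2990.3, 2835 and 3090.5, against 2946, 1959 and 1568 in col. UGT80B1, a sterol glucosyltransferase, stayed between -0.08 and 0.17, and UGT87A2 between -0.36 and 0.21.

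Members without a role given here numbered 19, with UGT72B3 and UGT76E2 the ones called. UGT71C1 (AT2G29750) had 2996, 2031 and 2229 in chl1-5, against 1829, 1405 and 1287 in col, at 0.67 with a limma adjusted p of 0.105. Its arrays also lay all above col in chl1-12 (2818, 2014 and 1908) and T101A (2680, 2259 and 1989), and overlapped col in chl1-9 and T101D. Its neighbour UGT71C2 (AT2G29740) was at 0.50 in chl1-9 and 0.40 in chl1-5, with adjusted p of 0.0735 and 0.219. In T101D, UGT88A1 (AT3G16520) had 83.5, 82.1 and 77.7, against 174, 105 and 160.5 in col. It was at -0.71 ± 0.16 (log2, SE) with a limma adjusted p of 0.0776. UGT85A3 (AT1G22380) had 5.37, 5.41 and 3.66 in T101D, but its col arrays read 5.18, 30.9 and 63.2, so the groups overlapped. UGT85A2, UGT71C4 and UGT71B1 stayed between -0.26 and 0.19 in all lines.

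Across the family, the median difference was 0.16 in chl1-9, where the median of all probe sets was -0.00048, and 32 of 47 members were above 0, against 49.9% of all probe sets. Members above 0 numbered 22 of 47 for chl1-5, 22 for chl1-12, 24 for T101A and 16 for T101D, where the background was 43.8%, 43.3%, 45.2% and 44.7%. The medians of members in chl1-5, chl1-12, T101A and T101D were -0.00, -0.04, 0.00 and -0.06, against -0.03, -0.03, -0.03 and -0.02 over all probe sets.

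Groups that did not overlap were counted as well. In chl1-9, 10 members had arrays all above those of col (background 9.25%) and 1 had them all below (background 9.08%). In chl1-5 these counts were 9 above (8.85%) and 4 below (12.5%), in chl1-12 7 above (7.13%) and 6 below (10.1%), and in T101A 8 above (9.66%) and 5 below (12%). In T101D 3 members lay all above col (background 6.81%) and 7 all below (background 9.63%). In T101D 3 of the 4 measured green shoot markers fell by limma, by 1.13 to 1.35 on the log2 scale (background 0.255% called). In T101A 0 of the 4 were called by limma, all 4 had an unadjusted p under 0.05 (background 16% at that p), and their median was -0.72. No green shoot marker was called for a chl1 line. By limma, 5 of the 6 measured root hair markers were called higher than col for T101A (background 1.52% higher) and 4 for chl1-5 (1.35%). The count was 2 each for chl1-9 (background 1.75%) and chl1-12 (0.941%), and 1 for T101D (0.255% in either direction). No root hair marker was called lower.

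**Figure D4:**
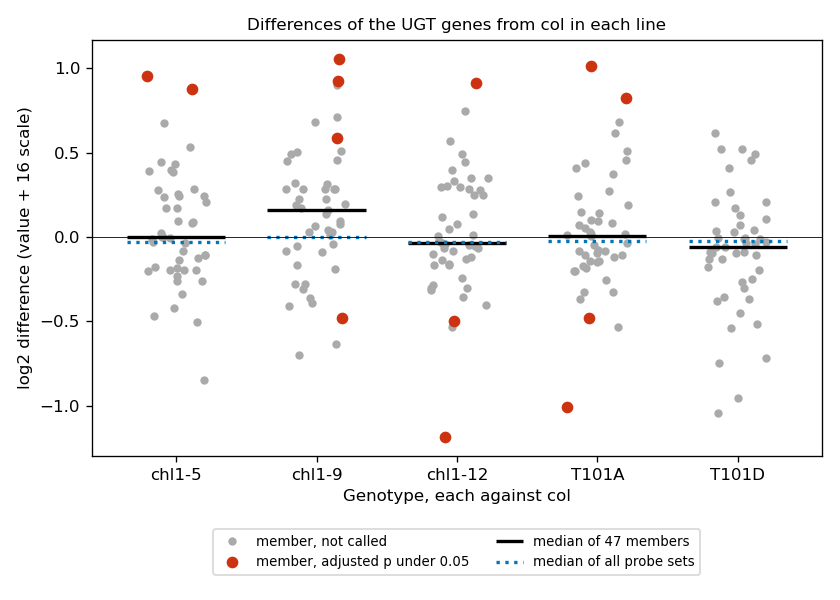
Log2 difference from col (log2(value + 16) scale) of each of the 47 UGT genes in 5 lines; points are genes, spread sideways for sight. Red points passed limma's adjusted threshold, black bars are member medians and dotted bars the medians of all probe sets; the member median is 0.16 in chl1-9.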

How the data were processed

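Root RNA was extracted with TRIzol and labelled with an Affymetrix 3' IVT Express kit, per the labels' protocols. Linear intensity values of 22810 probe sets on 18 arrays were deposited in 1 table. How probes were summarised and background was corrected is not given in the sources used here. By the values, every array has a mean of 500 once 2% is trimmed at each end, so a change in total messenger RNA cannot be seen. Intensities under 16 made up 16.5% to 19.5% of an array. Control probe sets (64) were left out.

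With limma 3.58.1 (R 4.3.3), log2(value + 16) of 22746 probe sets was modelled by genotype over the 18 arrays together. Each of 15 pairs was adjusted by the Benjamini-Hochberg method over all probe sets. The steps were tested on simulated data. Figures used Python 3.11.15 and matplotlib 3.10.9. Depth has no equivalent on arrays, and their number limits the precision.

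Gene names are those of the platform annotation, matched by gene ID to RefSeq genes of TAIR10.1. The annotation listed 1 gene for 13513 probe sets, several for 503 and none for 8730. Any member could be named, and per-array values were to be given for members called against col and for the brightest and dimmest member (UGT72E2 and UGT73C1); the other members with values for single arrays were chosen after their values were seen. Members, role groups and gene lists were chosen with earlier results of these data known. The list of 21 UDP-sugar genes had 0 measured. Groups and replicate numbers came from sample titles. Files gave no scan date or other batch.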

Additional observations from a re-analysis of the deposited data

How the results depend on the processing

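No call was reversed in any alternative. Of the 13 calls against col, 2 held in all 15 alternatives (UGT72E1 in chl1-9 and T101A), 11 were lost in a fit of the 6 arrays compared, which leaves fewer arrays to estimate the spread, and 4 were lost under a setting other than that fit or a left-out array. All 7 calls between other lines were lost in the fit of 6 arrays. Calls over all probe sets stand in brackets beside each count of members, and as reported they were 495 in chl1-5, 772 in chl1-9, 341 in chl1-12, 508 in T101A, 58 in T101D, 598 by the F test and 798 over the 9 other pairs. With only the 6 arrays compared, the members called were 0 in chl1-5 (135 of all probe sets), 1 in chl1-9 (160 of all), 0 in chl1-12 (95) and 1 in T101A (45). Above the lowest quartile of mean level, they were 7 in chl1-9 (943), 1 in T101D (115) and 11 over the 9 other pairs of lines (1088). An intensity trend gave 11 over those 9 pairs (1287), and array weights gave 4 in chl1-5 (867). The cause of these moves was not tested.

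With 1 array left out, members called ranged from 1 to 2 in chl1-5 (against 2 with all arrays), from 3 to 7 in chl1-9 (against 4; 7 without col replicate 1), from 1 to 4 in chl1-12 (against 3; 1 without chl1-12 replicate 1 or col replicate 2 or 3) and from 1 to 6 in T101A (against 4; 1 without col replicate 2 or 3 or T101A replicate 1 or 3). The range was 0 to 1 in T101D, with 1 without col replicate 1 or 2. It was 0 in T101A against T101D, 4 to 5 for the F test and 5 to 9 over the 9 other pairs. In chl1-5 the count was 1 without chl1-5 replicate 1 or 3 or col replicate 2. Over all probe sets the ranges were 216 to 332 in chl1-5, 453 to 685 in chl1-9, 181 to 292 in chl1-12, 226 to 540 in T101A, 12 to 80 in T101D, 4 to 13 in T101A against T101D, 384 to 591 for the F test and 480 to 863 over the 9 other pairs.

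Same-numbered arrays of different genotypes deviated together weakly but always in the same direction (r 0.010 to 0.142 over 45 pairs, 7 of them over 0.1). The main fit did not take the numbers as pairs, and the titles do not say what they stand for. All 18 arrays correlated best with arrays of their own number, a hint from the data and not the design. UGT72E1, UGT72E2 and UGT84A4 were highest on replicate 1 in all 6 genotypes. With the replicate block, members called were 4 in chl1-5 (676), 7 in chl1-9 (1066), 5 in chl1-12 (496), 7 in T101A (879), 1 in T101D (91), 8 by the F test (876) and 13 over the 9 other pairs (1293). A mean over several probe sets was not run, since each member had 1. The BGLU alternatives were chosen after seeing the data.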

Other observations

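UGT genes outside the symbol rule gave no call against col. Another 4 measured genes carry a UGT name as a RefSeq synonym: GT72B1 (UGT72B1), UF3GT (UGT79B1), SGT (UGT80A2) and AT5G54010 (UGT79B6). By limma 0 of these 4 passed in any line, with 1, 0, 1, 2 and 0 at an unadjusted p under 0.05 in chl1-5, chl1-9, chl1-12, T101A and T101D. The shares of all probe sets at that p were 13.5%, 15.5%, 11.1%, 16% and 10.6%. GT72B1, which acts on monolignols and chlorinated phenols, averaged 2619 ± 79 in T101A, against 1980.4 ± 544 in col (SD, n = 3 each), a log2 difference of 0.43 with a limma adjusted p of 0.137. A further 3 probe sets list several genes with a UGT among them. The one shared by UGT73B2 and UGT73B3 averaged 4269 ± 291 in chl1-9, against 3353 ± 567 in col (SD, n = 3 each), a difference of 0.36 with a limma adjusted p of 0.153.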
